A study of Mus musculus with 22 samples.

Results

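Cadherins are calcium-dependent adhesion proteins that hold neighbouring cells together, and 7 of their genes are described here: Cdh1, Cdh2, Cdh3, Cdh6, Cdh11, Cdh13 and Cdh16. All probe sets annotated to these symbols were taken, whatever their level. They numbered 14 of the 45037 probe sets tested, and the 7 genes were among 18193 genes with a probe set of their own. Cdh1 (Entrez gene 12550) and Cdh16 (12556) had 1 probe set each. Cdh2 (12558), Cdh3 (12560), Cdh6 (12563) and Cdh11 (12552) had 2 each, and Cdh13 (12554) had 4.

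Messenger RNA was measured on 22 Affymetrix arrays. The antibody-treated group was 3 preparations of A2C12 cells exposed to a monoclonal antibody against mouse EpCAM, at 100 µg/ml for 48 h, and then sorted. The untreated group was 3 preparations of the same line sorted without antibody. A2C12 is a mouse lung tumour line that carries c-myc and c-raf transgenes on a C57BL/6 background, and the sort kept its side population (SP), the cells that pump out a DNA-binding Hoechst dye. Lung tissue came from C57BL/6 mice without the transgenes, 8 samples labelled female and 8 labelled male, and the ages of the mice are not given in the labels. The labels do not name the promoters of the transgenes and give no antibody for the untreated cells. No unsorted A2C12 cells were among the arrays, so a difference from lung cannot be told apart between the sorted fraction and the whole line. The 6 cell samples are preparations of 1 line, and their spread is not a spread between tumours.

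In a classical cadherin the outer part binds a cadherin on the next cell, and the tail holds beta-catenin or plakoglobin, which alpha-catenin ties to actin, while p120-catenin keeps the complex at the membrane. E-cadherin, the product of Cdh1, joins epithelial cells. N-cadherin (Cdh2) is typical of neural and mesenchymal cells, and an exchange of E- for N-cadherin, known as cadherin switching, is a recognised feature of epithelial-mesenchymal transition in carcinomas. P-cadherin (Cdh3) is another type I cadherin, found in placenta and basal epithelia, and K-cadherin (Cdh6) and OB-cadherin (Cdh11) are of type II. Cdh13 and Cdh16 are not classical cadherins in structure: T-cadherin (Cdh13) is held by a lipid anchor and has no tail inside the cell, and KSP-cadherin (Cdh16), known from kidney tubules, has a short one. In the RefSeq annotation of the mouse assembly GRCm38.p6, Cdh3 and Cdh1 are neighbours, with 0 protein-coding genes between them.

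The deposited values are linear intensities for each probe set, and their median was 39.3 to 40.0 on the antibody-treated arrays, 39.4 to 40.6 on the untreated arrays and 47.9 to 54.6 on the lung arrays. Log2 changes below are of log2(intensity + 16) after quantile normalization, each with its standard error (SE), and adjusted p are from limma over all probe sets. In cells against lung the SE rests on a spread shared by all 22 arrays, 16 of them lungs, not on the cells alone. A probe set was called in cells against lung at an adjusted p under 0.05 with at least a 2-fold change. An intensity cannot be set against that of another probe set, so levels are compared only between arrays. In bulk samples, fewer cells of a type and less RNA per cell cannot be told apart. Of the male-labelled lungs, 2 (replicates 3 and 4) carried high Xist and low Uty, as the female-labelled ones did, against their label. A labelling control added to the RNA, dap, read 366 to 577 on the antibody-treated and 551 to 601 on the untreated arrays but at most 2.72 on the lung arrays, so handling of the RNA cannot be told apart from the difference between cells and tissue.

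Of the 14 cadherin probe sets, 2 were higher and 6 lower in untreated cells than in lung, and 6 were not called. Both sets that rose were those of Cdh2, and those that fell were the set of Cdh1, both sets of Cdh11, 2 of the 4 of Cdh13 and the set of Cdh16. Over all probe sets, 15.3% were called higher and 14.3% lower. The median log2 change was -0.34 over the 14 cadherin sets and 0.17 over all sets. With 1 probe set per gene, 1 of the 7 cadherin genes was higher and 4 were lower, against 15.3% higher and 20.0% lower of all genes. The plot of intensities by array shows each of the 14 sets.

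**Figure D1:**
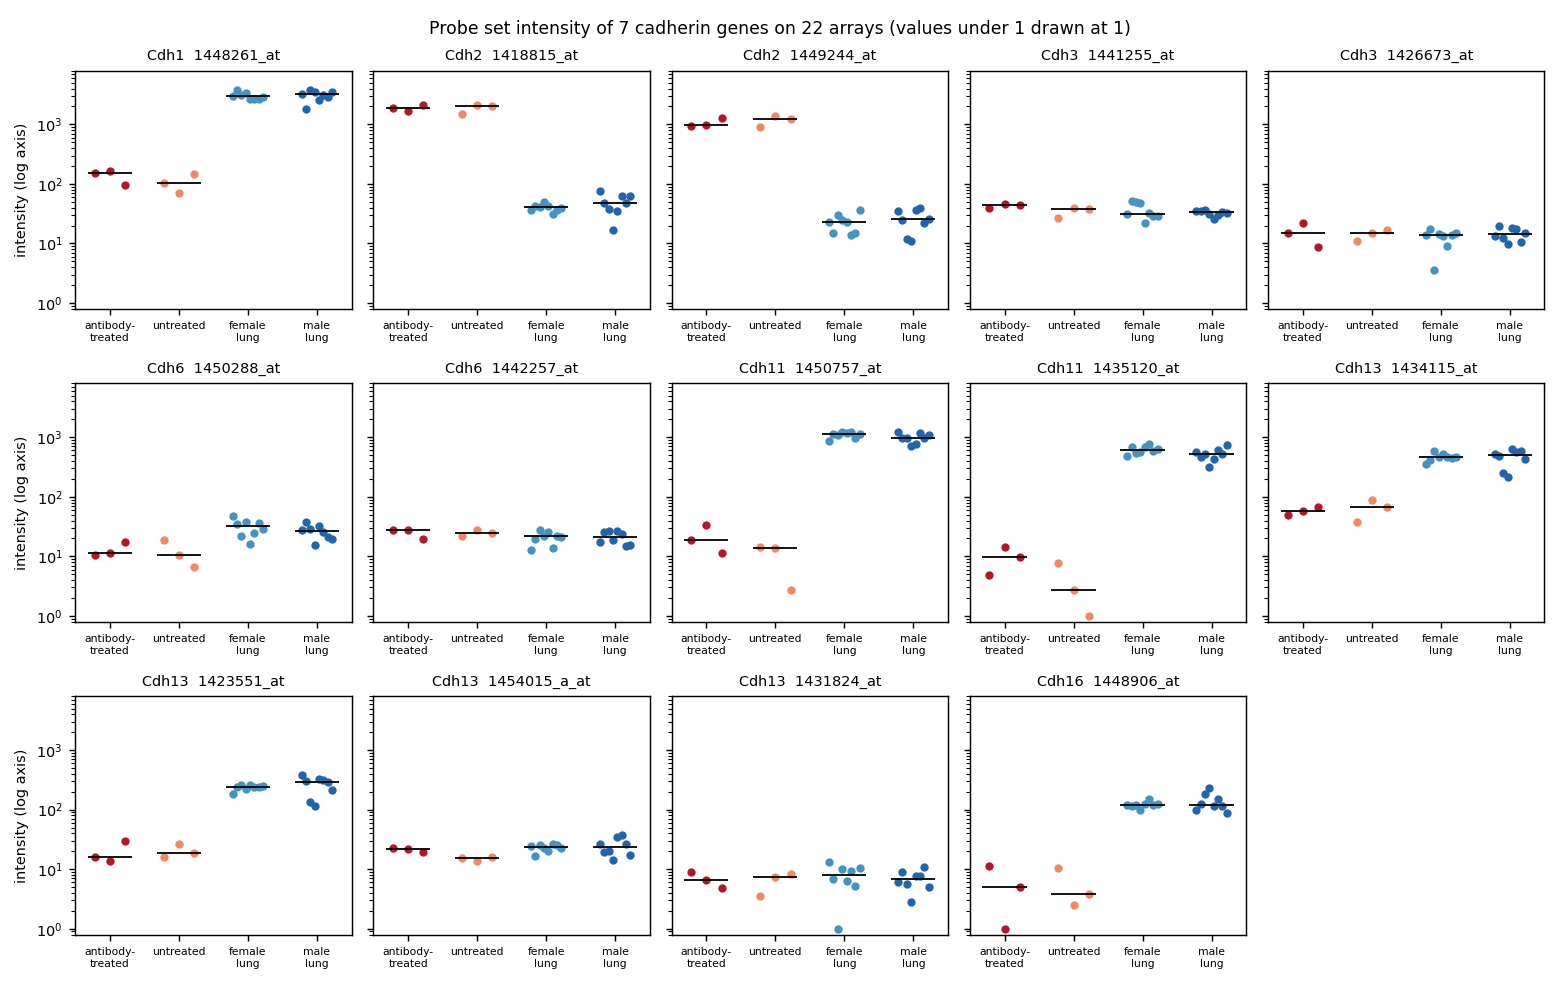
Intensity of the 14 cadherin probe sets (log axis) in 3 antibody-treated and 3 untreated A2C12 SP samples, 8 female-labelled and 8 male-labelled lungs; each point is an array, and the horizontal bar is the group median. Cdh2 reads 906 to 2120 in the cells, with a ceiling of 76.3 in lung, while Cdh1, Cdh11 and Cdh16 are higher in lung on every array.

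E-cadherin transcript was far lower in the sorted cells than in lung. The Cdh1 set (1448261_at) read 155, 163 and 97.8 in the antibody-treated samples and 104, 71.0 and 146 in the untreated samples. In lung it ran from 1838 over a median of 3090 to 3817. Every cell sample lay below every lung. The log2 change from lung was -4.15 ± 0.16 in antibody-treated cells (limma adjusted p = 7.65e-18), a 17.8-fold lower level. In untreated cells it was -4.47 ± 0.16 (limma adjusted p = 1.62e-18), 22.1-fold lower.

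Markers of simple epithelium moved in the same direction as Cdh1. Of 9 markers, 8 were lower in untreated cells than in lung, and the keratin gene Krt19 was not called (-0.37). Their summed intensity was 1704 to 2329 in antibody-treated cells, 1632 to 3018 in untreated cells and 11812 to 22626 in lung. By the probe sets that represent them, Krt7, Cldn3, Cldn7, Esrp1 and Epcam stayed below the 40th percentile of the array's intensities on every untreated array, and on every antibody-treated array as well, where Cldn4 joined them. Such a rank describes brightness on the array only. Their part in the Cdh1 result was not tested.

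N-cadherin transcript showed the opposite difference, and its gene was the only one of the 7 called higher in the cells. The Cdh2 set with the higher mean (1418815_at) read 1857, 1665 and 2103 in antibody-treated and 1523, 2120 and 2022 in untreated cells. Lung ran from 17.0 over a median of 41.5 to 76.3. The lowest cell sample was far above the highest lung. The log2 change was 5.07 ± 0.18 in antibody-treated cells (limma adjusted p = 1.66e-18) and 5.03 ± 0.18 in untreated cells (limma adjusted p = 1.84e-18), 33.5-fold and 32.7-fold higher than lung.

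The other Cdh2 set (1449244_at) gave 947, 963 and 1259 in antibody-treated and 906, 1372 and 1256 in untreated cells, against 11.0 to 39.7 in lung. Its changes of 4.82 ± 0.19 and 4.94 ± 0.19 for antibody-treated and untreated cells thus ran with those of the set above. The fold depends on the constant added before the logarithm, because the lung intensities are small. With constants of 1 and 64 the change of 1418815_at was 5.53 and 4.20 in antibody-treated cells and 5.49 and 4.16 in untreated cells. That of 1449244_at was 5.57 and 3.69 in antibody-treated and 5.70 and 3.81 in untreated cells, and all of these were still called.

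Markers of neural cells and fibroblasts, which can express N-cadherin, did not all move with it. Of 3 neural markers, Tubb3 (3.54) and Ncam1 (1.69) rose in untreated cells while Sox10 was not called (-0.23), and the summed intensity was 386 to 506 in antibody-treated cells, 398 to 537 in untreated cells and 127 to 242 in lung. Of 7 fibroblast markers, Col1a1 (1.16) and Fn1 (1.68) rose, Pdgfra (-2.48) and Dcn (-3.04) fell and 3 were not called. The fibroblast sum was 24298 to 28416 in antibody-treated cells, 24761 to 29210 in untreated cells and 19223 to 25451 in lung. Of 5 smooth muscle markers 0 rose and 4 fell in untreated cells, and of 3 mesothelium markers 0 rose and 2 fell. The part of these cell types in the Cdh2 result was not tested.

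Neither of the P-cadherin sets was called. The set 1441255_at read 39.7, 45.7 and 43.5 in antibody-treated cells, 27.0, 40.0 and 38.5 in untreated cells and 22.05 to 52.5 in lung, with a lung median of 32.3. Its log2 change was 0.51 ± 0.13 in antibody-treated cells (95% interval 0.23 to 0.78, limma adjusted p = 0.00150), short of 2-fold, and 0.27 ± 0.13 in untreated cells (-0.01 to 0.54, limma adjusted p = 0.0722). On the normalized scale every antibody-treated sample lay above every lung, while the untreated samples overlapped with lung. Relative to the median probe set, the log2 changes were 0.35 in antibody-treated and 0.10 in untreated cells, and without normalization 0.23 and 0.01. The set 1426673_at read 8.61 to 22.3 in antibody-treated cells, 11.0 to 17.0 in untreated cells and 3.61 to 19.5 in lung, with overlapping groups and changes of 0.24 ± 0.13 and 0.20 ± 0.13 for antibody-treated and untreated cells.

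The 2 type II cadherins differed from each other. Cdh6, best known from developing kidney, was not called, and its sets went in opposite directions. The set 1450288_at read 10.7, 11.4 and 17.6 in antibody-treated and 18.5, 10.5 and 6.52 in untreated cells, against 15.7 to 48.2 in lung, with log2 changes of -0.42 ± 0.16 and -0.51 ± 0.16 for antibody-treated and untreated cells. The set 1442257_at read 27.7, 27.7 and 19.6 in antibody-treated and 21.7, 27.5 and 25.1 in untreated cells, against 12.7 to 28.0 in lung, with changes of 0.36 ± 0.12 and 0.35 ± 0.12. The groups overlapped for both sets, and all 4 changes had limma adjusted p of 0.00687 to 0.0246 but stayed under 2-fold. Relative to the median probe set, 1450288_at changed by -0.57 in antibody-treated and -0.68 in untreated cells, and 1442257_at by 0.21 and 0.19. Over the alternatives, the limma adjusted p rose to as much as 0.114 and 0.0920 for 1450288_at, and 0.278 and 0.292 for 1442257_at.

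Cdh11, a cadherin of mesenchymal cells and bone-forming cells, was lower in the cells than in lung. The set 1450757_at read 18.6, 33.8 and 11.3 in antibody-treated and 14.2, 13.6 and 2.72 in untreated cells. In lung it ran from 702 over a median of 1088 to 1238. The log2 change was -4.71 ± 0.16 in antibody-treated cells (limma adjusted p = 1.59e-18) and -5.26 ± 0.16 in untreated cells (limma adjusted p = 1.49e-19).

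The other Cdh11 set, 1435120_at, read 4.95, 14.4 and 9.84 in antibody-treated cells, 7.72, 2.74 and 0.00684 in untreated cells and 322 to 780 in lung, for changes of -4.39 ± 0.16 and -4.85 ± 0.16 in antibody-treated and untreated cells. Here too the fold depends on the added constant. The change of 1450757_at in untreated cells ranged from -6.53 with a constant of 1 to -3.86 with 64, and that of 1435120_at from -7.29 to -3.19, each still called. The cells thus had more Cdh2 and less Cdh11 than lung, both cadherins of mesenchyme, and the fibroblast markers given above moved in both directions.

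T-cadherin fell in the cells by the 2 of its 4 sets that read over 100 on every lung array. The set 1434115_at read 49.9, 57.7 and 68.1 in antibody-treated and 37.5, 88.6 and 67.7 in untreated cells, against a lung range of 215 over a median of 469 to 626. No cell sample reached the lowest lung. The log2 change was -2.39 ± 0.22 in antibody-treated cells (limma adjusted p = 6.13e-10) and -2.33 ± 0.22 in untreated cells (limma adjusted p = 9.51e-10), or 5.24-fold and 5.04-fold lower.

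The Cdh13 set 1423551_at read 15.9, 13.6 and 30.1 in antibody-treated cells, 15.99, 26.6 and 18.8 in untreated cells and 114 to 384 in lung, with changes of -2.65 ± 0.23 and -2.62 ± 0.23 for antibody-treated and untreated cells. With constants of 1 and 64 the change in untreated cells was -3.21 and -1.74. The remaining sets did not share these falls. The set 1454015_a_at read 19.4 to 22.5 in antibody-treated cells, 13.7 to 16.3 in untreated cells and 14.6 to 36.9 in lung. The set 1431824_at read 4.75 to 8.83 in antibody-treated cells, 3.50 to 8.16 in untreated cells and 0.148 to 13.1 in lung. Neither was called, with log2 changes between -0.17 and 0.12.

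T-cadherin is known from endothelium and vascular smooth muscle, and most markers of both were lower in the cells. All 7 endothelial markers were lower in untreated cells, with a summed intensity of 72.6 to 91.2 in antibody-treated cells, 71.9 to 92.9 in untreated cells and 12829 to 25058 in lung. Of 5 smooth muscle markers 4 were lower, with sums of 3714 to 5093 in antibody-treated cells, 3038 to 4931 in untreated cells and 6074 to 13191 in lung. Their part in the Cdh13 and Cdh11 results was not tested.

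KSP-cadherin transcript was lower in the cells than in lung. The Cdh16 set (1448906_at) read 11.3, 0.0190 and 4.99 in antibody-treated and 10.5, 2.52 and 3.81 in untreated cells. Lung ran from 88.4 over a median of 120 to 235. Every cell sample was below every lung, with a log2 change of -2.62 ± 0.21 in antibody-treated cells (limma adjusted p = 4.32e-11) and -2.59 ± 0.21 in untreated cells (limma adjusted p = 5.30e-11). With constants of 1 and 64 the change in untreated cells was -4.14 and -1.38.

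In antibody-treated cells against lung the same 8 sets were called as in untreated cells, 2 higher and 6 lower, where 15.1% of all probe sets were higher and 14.2% lower. The median change was -0.16 over the 14 cadherin sets and 0.15 over all. The 2 cell groups were compared with the same lungs, so their changes from lung are not independent of each other. The plot of changes from lung sets them side by side.

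**Figure D2:**
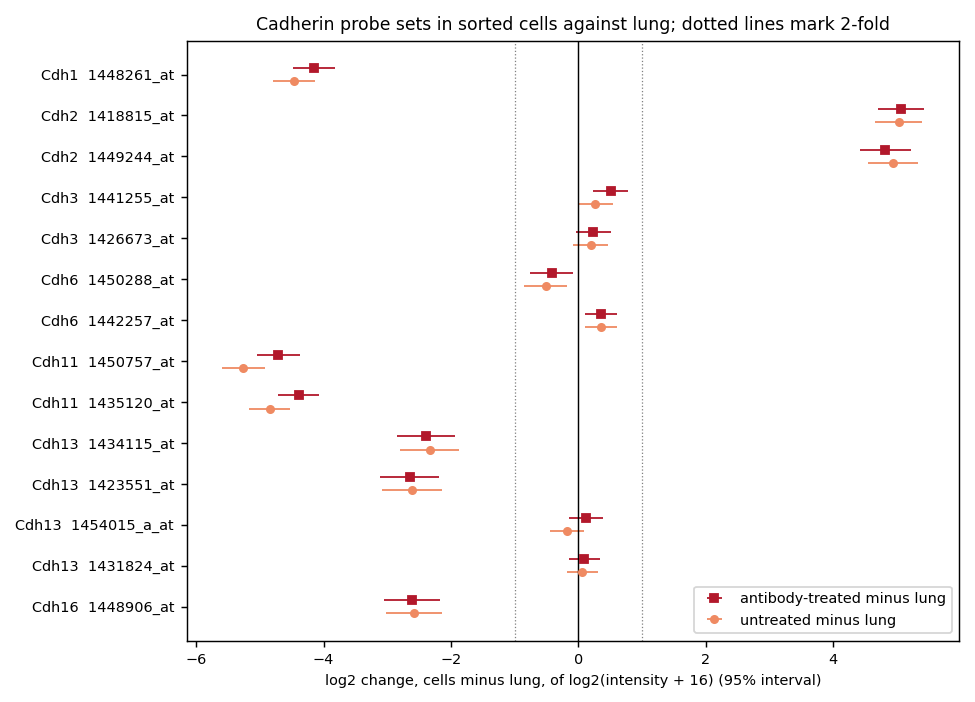
Log2 change of each cadherin probe set in antibody-treated (squares) and untreated (circles) A2C12 SP cells minus lung, with 95% intervals, 3 cell samples of each kind and 16 lungs; dotted lines mark a 2-fold change. The Cdh2 sets lie near 5, Cdh1 and Cdh11 between -4.15 and -5.26, Cdh13 and Cdh16 reach -2.65, and 6 sets lie within the dotted lines.

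The antibody comparison set sorted cells exposed to the antibody against EpCAM beside untreated ones, and it showed no called change in any cadherin. Binding of the antibody was not measured. Epcam itself, by the set that represents it, stayed below the 40th percentile on every cell array. None of the 14 sets passed an adjusted p of 0.05 in limma, and 1 had an unadjusted p under 0.05. Over all probe sets, 3 were called, or 0.00666%, and 1022 had an unadjusted p under 0.05. The median change was 0.04 over the cadherin sets and -0.01 over all sets. With 3 samples a group, the 95% intervals show which differences the arrays could still hold.

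For Cdh1 the difference, antibody-treated minus untreated, was 0.31 ± 0.26 (95% interval -0.29 to 0.92), and the samples of the groups overlapped. For Cdh2 it was 0.04 ± 0.17 (-0.35 to 0.42) by 1418815_at and -0.12 ± 0.19 (-0.57 to 0.32) by 1449244_at. Changes of 2-fold on this scale lay outside the intervals of both genes. Cdh11 had the widest of the 14 intervals, with 0.55 ± 0.28 (-0.10 to 1.20) by 1450757_at and 0.45 ± 0.20 (-0.01 to 0.92) by 1435120_at, at intensities of at most 33.8.

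The smallest unadjusted p of the 14 was that of the Cdh13 set 1454015_a_at, at 0.0407 (limma adjusted p = 1.00). It read 22.5, 21.9 and 19.4 in antibody-treated cells, against 15.4, 13.7 and 16.3 in untreated cells, a difference of 0.29 ± 0.12 (0.02 to 0.56). These groups did not overlap, and neither did those of the Cdh3 set 1441255_at on the normalized scale, which makes 2 of 14 where 5.91% of all probe sets had groups apart. The Cdh13 sets that read higher in lung differed by -0.06 ± 0.26 (1434115_at) and -0.04 ± 0.21 (1423551_at). The Cdh16 difference was -0.03 ± 0.25 (-0.60 to 0.54), and those of Cdh6 were 0.10 ± 0.19 and 0.01 ± 0.14.

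**Figure D3:**
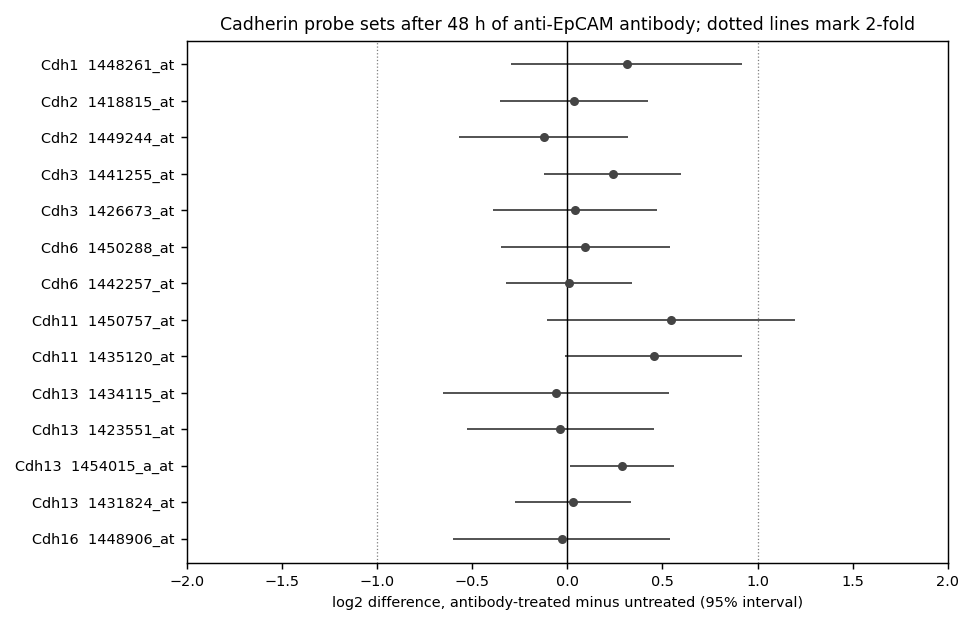
Log2 difference of each cadherin probe set between antibody-treated and untreated A2C12 SP cells (3 samples each, antibody-treated minus untreated) with its 95% interval; dotted lines mark 2-fold. Of the 14 intervals, 13 include 0, and only that of Cdh11 1450757_at reaches past 2-fold, to 1.20.

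Cadherins act through partners, and lists of these were compared between untreated cells and lung with 1 probe set per gene. Of 16 genes of catenins and the junction plaque, 0 rose, 6 fell and 10 were not called, against 15.3% higher and 20.0% lower of all genes. The median change was -0.29, against 0.07 over all genes. The largest fall was in Jup, which encodes plakoglobin, whose intensity averaged 179 ± 30.6 in the 3 untreated samples (SD) and 1243 ± 433 in the 16 lungs (SD), for a change of -2.46 ± 0.23. Ctnnd1, the gene of p120-catenin, changed by -1.57 ± 0.10, Pkp4, a plakophilin relative, by -1.36 ± 0.12 and Afdn, which links nectins to actin, by -1.32 ± 0.10.

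The genes of alpha- and beta-catenin, named after their values were seen, were not called by the sets that represent them. Ctnnb1 averaged 5717 ± 574 in the 3 untreated samples (SD) and 6432 ± 589 in the 16 lungs (SD), a change of -0.30 ± 0.06. The value for Ctnna1 was -0.48 ± 0.06. Lima1, which encodes an actin-binding protein and was also named after its values were seen, was counted as not called by the set that represents it, but 3 of its 4 other sets rose in untreated cells (1.28, 1.82 and 1.19). In antibody-treated cells, where 14.8% of all genes were higher and 20.0% lower than in lung, 1 gene of the list rose, Ctnna3 with a change of 1.23, and 5 fell, Jup among them with -2.47 ± 0.23.

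Of 9 listed genes whose products repress Cdh1 transcription, 8 were measured, and they went both ways in untreated cells. There 4 rose, 3 fell and 1 was not called, with a median of 1.48. The values over all genes were 15.3% higher and 20.0% lower, with a median of 0.07. Twist1 averaged 170 ± 13.4 in the 3 untreated samples (SD) and 3.66 ± 4.43 in the 16 lungs (SD), a change of 3.46 ± 0.16. With constants of 1 and 64 this change was 6.06 and 1.93, still called. Twist2 changed by 2.41 ± 0.13 (2.87 and 1.65 with these constants), Tcf3, which encodes E12 and E47, by 2.20 ± 0.14 and Snai2 (Slug), the last named after its value was seen, by 2.11 ± 0.15. Tcf4 changed by -2.36 ± 0.15, Zeb1 by -1.84 ± 0.12 and Zeb2 by -1.29 ± 0.15. Snai1 was not called, at 0.85 ± 0.21. In antibody-treated cells the same list again had 4 genes higher, 3 lower and 1 not called, with a median of 1.42.

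The calls of the Zeb genes depended on the probe set. The other 3 sets of Zeb1 were also lower, between -0.65 and -0.21, but were not called. Their intensities were small, averaging 5.59, 32.8 and 7.35 in untreated cells and 11.2, 75.6 and 25.0 in lung. Of the other 4 sets of Zeb2, 1 fell (-2.89) and 3 were not called, at -0.29 to 0.49. All 3 sets of Tcf3 and both of Snai2 rose in untreated cells, but the second Snai2 set was not called in antibody-treated cells (0.96). Of the 5 other sets of Tcf4, 4 fell (-3.44 to -1.52), and 1, at 0.96, was not called. Twist1 and Twist2 had 1 set each.

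Among 14 measured cadherins outside the 7, 1 rose, 2 fell and 11 were not called in untreated cells, with a median change of 0.13. Over all genes 15.3% were higher and 20.0% lower, with a median of 0.07. Cdh5, the VE-cadherin gene of endothelium, had the largest change of the list, averaging 7.63 ± 2.24 and 3.18 ± 2.94 in the 3 antibody-treated and 3 untreated samples and 3812 ± 537 in the 16 lungs (SD), or -7.59 ± 0.12 for untreated cells. With constants of 1 and 64 the value was -9.90 and -5.84. Cdh4, the R-cadherin gene, fell in untreated cells, to 21.9 ± 8.19 against 84.5 ± 12.1 in lung (SD), but the change of -0.67 with a constant of 64 was not called. In antibody-treated cells this set was not called (-0.99), while 1 of the 2 other Cdh4 sets was (-1.23). Cdh10, a type II cadherin of brain, rose by 2.65 ± 0.54, but its set read 0.564, 379 and 449 in the antibody-treated samples, against 456, 381 and 458 in untreated cells and 23.3 to 122 in lung. It was not called in antibody-treated cells (1.05 ± 0.54), and the other 3 Cdh10 sets were not called in untreated cells.

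The other adhesion lists were mostly not called in untreated cells, where 15.3% of all genes were higher and 20.0% lower. Of 5 nectin genes 2 fell, Nectin3 with a change of -3.34 and Nectin4 with -1.02, just past 2-fold. The Nectin4 call was lost with a constant of 64 (-0.61) and under 3 other alternatives. Of 6 measured desmosomal cadherins 1 fell, Dsg2 with a change of -3.87, although only 1 of its 5 other sets was called. Of 9 measured genes of cadherin cleavage and turnover, Adam10, which sheds the outer part of E- and N-cadherin, rose by 1.03 ± 0.11, averaging 3058 ± 309 in the 3 untreated samples (SD) and 1424 ± 173 in the 16 lungs (SD). That call was lost with the replicate number as a block (0.95), without untreated replicate 2 (0.94) and with only lungs 1 to 4 (0.98), while 2 other Adam10 sets rose (2.32 and 2.73). The gelatinase gene Mmp9 (-2.65 ± 0.55) and Numb (-2.52 ± 0.09), whose product is an adaptor in endocytosis, fell, and 6 were not called. With constants of 1 and 64 the change of Dsg2 was -5.66 and -2.36, and that of Nectin3 -3.68 and -2.67. Over all alternatives that of Mmp9 lay between -4.05 and -1.75. With the antibody, 0 of the 58 genes of these 6 lists were called by limma against untreated cells, where 0.0110% of all genes were, and 0 of the 58 had an unadjusted p under 0.05. The plot of the partner lists shows every gene.

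**Figure D4:**
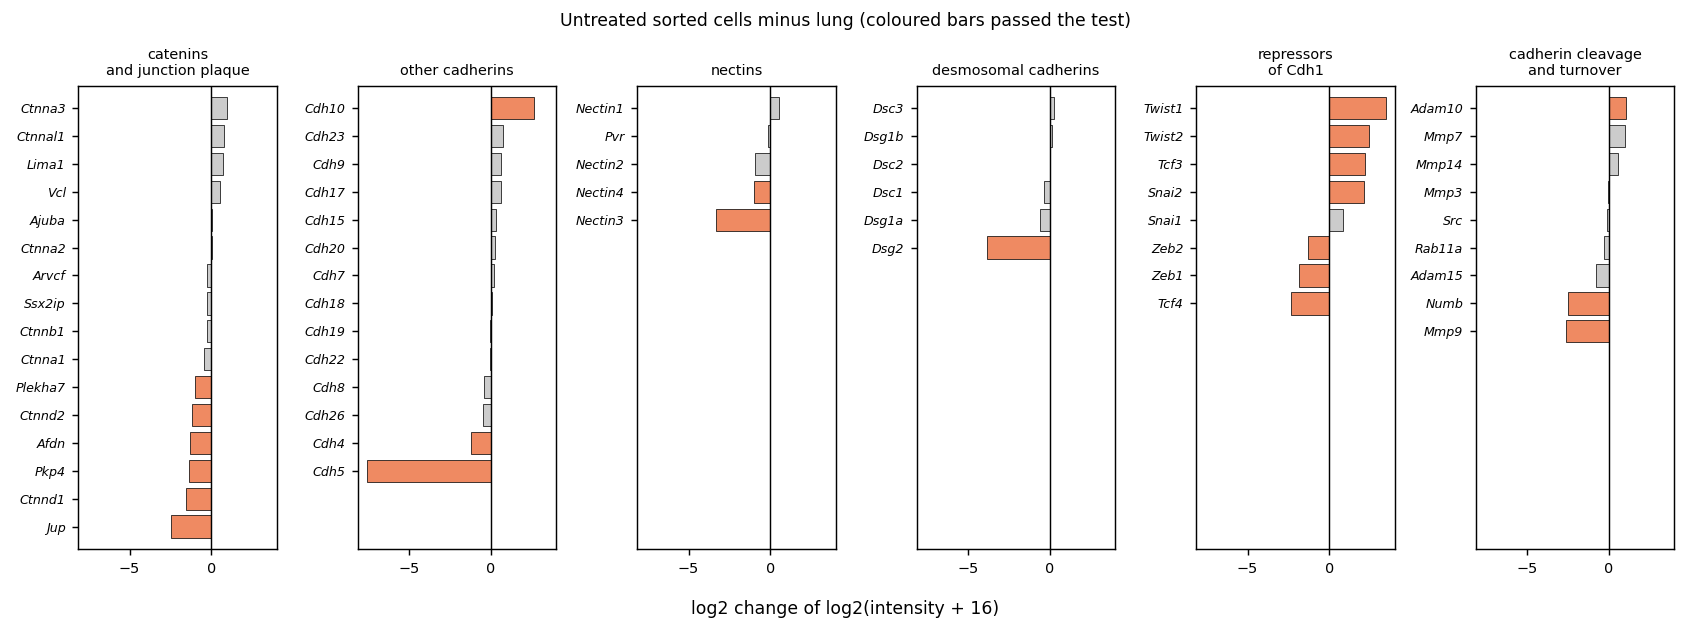
Log2 change of genes in 6 lists of cadherin partners, untreated A2C12 SP cells (3 samples) minus lung (16 samples), 1 probe set per gene; coloured bars passed an adjusted p of 0.05 with at least a 2-fold change, and grey bars did not. Twist1 (3.46) and Cdh10 (2.65) are the highest bars and Cdh5 (-7.59) the lowest; the constant of 16 added before the logarithm sets part of these heights.

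Between female-labelled and male-labelled lungs none of the 14 cadherin sets was called. In limma 0 passed and 1 had an unadjusted p under 0.05, while 9 of all probe sets, or 0.0200%, were called and 3752 had an unadjusted p under 0.05. The 1 set was Cdh11 1435120_at, with 625 ± 95.3 (SD, n = 8) in female-labelled and 524 ± 125 (SD, n = 8) in male-labelled lungs, a difference of 0.28 ± 0.12 (limma adjusted p = 0.538). Cdh1 differed by 0.04 ± 0.10, with 3046 ± 398 (SD, n = 8) in female-labelled and 3063 ± 639 (SD, n = 8) in male-labelled lungs. Without male replicates 3 and 4 the cadherin count was again 0.

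Among the lungs, the cadherins did not vary alike. The standard deviation over 16 lungs on the normalized log2 scale was 0.22 for Cdh1, 0.23 and 0.28 for the Cdh11 sets, 0.36 for Cdh16 and 0.39 and 0.41 for the higher Cdh13 sets. The spread of Cdh16 and Cdh13 rested largely on male replicates 3 and 4. Cdh13 1434115_at read 250 and 215 in these and 361 to 626 in the other 14 lungs, and 1423551_at read 136 and 114 against 184 to 384. Cdh16 went the other way, with 182 and 235 against 88.4 to 152. Without these lungs the standard deviations were 0.22 and 0.29 for the Cdh13 sets and 0.20 for Cdh16.

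Some cell type marker sums also stood apart in these 2 lungs, and others did not. The endothelial sum was 16056 and 12829 in male replicates 3 and 4 and 20532 to 25058 in the others, and the smooth muscle sum was 7300 and 6074 against 9266 to 13191. The simple epithelium sum was 19029 and 22626 against 11812 to 17762, and that of alveolar type 2 cells was 34979 and 36847 against 25491 to 33695. The leukocyte sum was 3854 and 3761 against 2532 to 3534, and the mesothelium sum was 349 and 318 against 447 to 1150. Sums of alveolar type 1 (30580 and 27917), club (30381 and 27150) and fibroblast markers (20874 and 19664) lay within the range of the others. The ciliated sum was 553 and 496 against 535 to 1430, and the neural sum 172 and 242 against 127 to 209. Their part in the cadherin values was not tested.

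**Figure D5:**
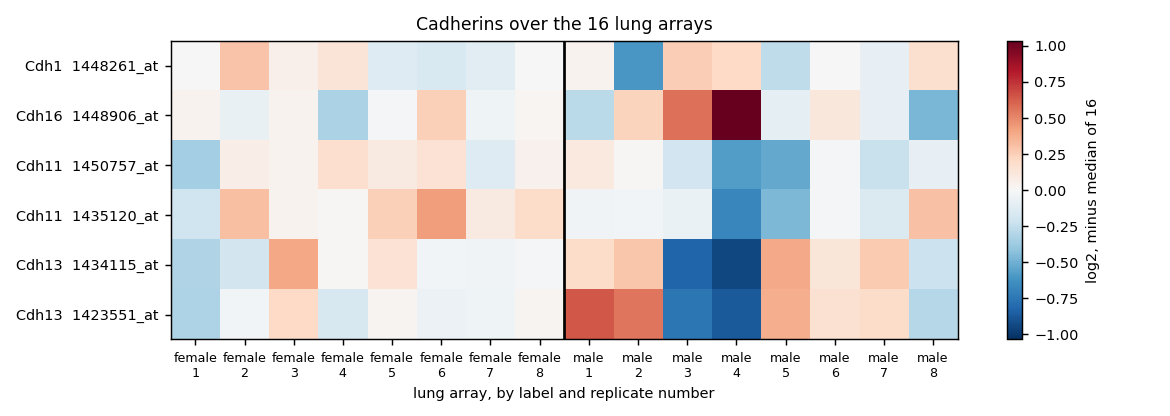
Normalized log2 value of 6 cadherin probe sets on each of 16 lung arrays (columns, by label and replicate number), minus the median of the 16; red is above and blue below it. Male replicates 3 and 4 stand out with low Cdh13 and high Cdh16.

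As a description over 16 lungs, which share the tissue and its cell mix, the 2 higher Cdh13 sets correlated at 0.92 (Pearson r; 0.80 over the 14 other lungs) and the Cdh11 sets at 0.84 (0.75). Cdh13 1434115_at and Cdh16 correlated at -0.64, but at 0.22 over the 14. Cdh1 correlated with the Cdh11 sets at -0.03 and 0.02 (0.24 and 0.33 over the 14), and with these Cdh13 sets at -0.61 and -0.63 (-0.51 and -0.52 over the 14). With Cdh16 it correlated at 0.07, but at -0.58 over the 14. The first principal component of the lungs, with 25.2% of their variance, separated lungs numbered 1 to 4 from those numbered 5 to 8. Male replicates 3 and 4 lay farthest out on it, at -45.68 and -68.70. The other lungs numbered 1 to 4 lay at -18.99 to 3.31, and those numbered 5 to 8 at 15.97 to 24.52. The component thus rested in part on male replicates 3 and 4, not on the numbering alone. Whether the correlations given here and below follow the split by number was not tested.

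For each cadherin with a mean of at least 100 in lung, the most alike of 10134 genes over the 16 lungs were found. For Cdh1 these were Flvcr1 (r = 0.95, and 0.96 over the 14), Zfp995 (0.93) and Ell2 (0.92). For Cdh11 they were Golm2 (0.91, and 0.87 over the 14), Plscr4 (0.90) and D430019H16Rik (0.89). For Cdh13 they were Adgre5 (0.93, but 0.78 over the 14), Cyp4b1 (0.93) and Ccm2l (0.92), and for Cdh16 they were Ap1m2 (0.91, but 0.63 over the 14), Paip2b (0.91) and Snx4 (0.90). The lists for Cdh13 and Cdh16 thus rested in part on male replicates 3 and 4.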

How the data were processed

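The authors deposited 1 table of probe set intensity for 22 arrays, made with PLIER according to the submitters' processing notes. Its version and settings, any scaling between arrays and a genome build are not given in the sources used here. The values read as linear intensities, and the number of arrays, not a depth, sets how precise they are. Leaving out 64 control sets gave 45037 probe sets, all tested with no filter. Gene names came from the platform annotation: 34945 sets had 1 symbol, 932 several and 9160 were not listed. Chromosomes came from RefSeq.

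Intensities were taken as log2(intensity + 16), quantile normalized over the 22 arrays and fitted with limma 3.58.1 in R 4.3.3 (trended eBayes, two-sided, Benjamini-Hochberg). Each cell group was set against the mean of female and male lung in 1 fit of all 4 groups. The antibody comparison used the 6 cell arrays and the sex comparison the 16 lungs, both called at an adjusted p under 0.05 with no fold needed. The fits were tested on simulated data. A gene in a list was represented by its probe set of highest mean, avoiding sets of the cross-hybridizing type.

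The named genes were all sets of the 7 members, up to 4 called genes with the largest change of each list whose groups do not overlap, all called genes in a direction with 3 or fewer, and the 3 most alike genes of each member. The members and lists were chosen with earlier results of these data known. The labels call the samples of a group biological replicates and do not say how they were separated. The p-values measure the spread between these samples, which in cells against lung was pooled over cells and lungs. The log2 standard deviation of Cdh1 was 0.33 in antibody-treated cells, 0.45 in untreated cells and 0.22 in lung. For Cdh2 1418815_at these values were 0.13, 0.30 and 0.32. No 2 arrays held identical values. The labels do not say whether replicate numbers pair the samples, and the reported fits did not use them as pairs. Same-numbered deviations correlated at -0.12 to 0.002 between antibody-treated and untreated cells and at -0.06 to 0.20 between female and male lung. For lungs numbered 5 to 8 these values were 0.10 to 0.20. With 3 samples in a cell group, such a check cannot exclude pairing.

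The alternatives changed the normalization (none or median centring), the offset (1 or 64), the features (a filter at the 40th percentile on at least 3 arrays, or 1 probe set per gene), the variance trend (none), the block (replicate number) and the arrays fitted (each cell array left out, either sex as the only lung, without male replicates 3 and 4, only the compared groups).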

Additional observations from a re-analysis of the deposited data

Results flagged for a closer look

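The dap labelling control, a bacterial transcript added to RNA before labelling and outside the cadherin comparisons, gave a signal on the cell arrays and not on the lung arrays. Its lowest value on the 6 cell arrays was 366.1, against a highest value of 2.72 on the 16 lung arrays. The labels do not say which controls were added to which samples. The dap value was not used in any cadherin result.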

How the results depend on the processing

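Every one of the 14 cadherin probe sets kept its direction, where called, and its side of the threshold in all 4 comparisons under each alternative in which it was tested. The filter at the 40th percentile left 10 of the 14 sets against lung and 6 between the cell groups. With 1 probe set per gene the cadherin calls numbered 5 against lung in place of 8, in untreated and in antibody-treated cells, because only 7 sets were then tested. The scaling moved the median of all probe sets, untreated cells minus lung, to 0.02 without normalization and 0.29 with median centring, from 0.17, and the share of calls that were higher was 40.6% and 57.0%, against 51.7%. Relative to that median, Cdh1 changed by -4.68 under either and -4.63 in the reported fit, Cdh2 1418815_at by 4.99 and 4.86, and Cdh3 1441255_at by 0.01 and 0.10.

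Over all probe sets, calls against lung numbered 20438 with an offset of 1, 7994 with 64 and 6419 with 1 set per gene in untreated cells (13372 reported), and 20246, 7894 and 6335 in antibody-treated cells (13234 reported). The antibody calls numbered 3 to 10 with 1 cell array left out and 7 with all 22 arrays in the fit (3 reported), none of them a cadherin. The sex calls, of which 9 were reported, numbered 5 without normalization, 27 with median centring, 32 with the filter, 4 with 1 set per gene and 45 without male replicates 3 and 4. In alternatives added after seeing the data they numbered 192 with only the lungs numbered 1 to 4 and 151 with those numbered 5 to 8, which a principal component separated, again with 0 cadherins called.

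With the replicate number as a block, 8 cadherin sets were called against lung for either cell group and 0 in the antibody and sex comparisons, while the sex calls over all probe sets numbered 0. Own-numbered samples correlated best with each other in 0 of 3 cases among the cells and 2 of 8 among the lungs, which cannot exclude pairing. The numbers were not taken as pairs because the labels do not say that they are. Partner genes were less stable: of the values under alternatives, 14 lost and 0 gained a call in untreated cells, and 6 lost and 15 gained one in antibody-treated cells. The calls lost in untreated cells were those of Plekha7, Nectin4, Adam10, Cdh4 and Ctnnd2, and in antibody-treated cells those of Adam10, Afdn and Ctnnd2. Cdh10 in antibody-treated cells was called at 2.62 without replicate 1, the array on which it read 0.564.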
